A study of Mus musculus with 8 samples.

Results

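The genes that encode voltage-gated sodium and calcium channels were examined in the frontal cortex of mice that lack HAR123. They were every protein-coding gene of the count table whose symbol in the GENCODE M21 annotation has the form Scn, a number and a or b, or begins with Cacna, Cacnb or Cacng, 40 of the 55536 genes in the table. By role they were 10 sodium channel alpha subunits, 4 sodium channel beta subunits, 10 calcium channel alpha1 subunits, 4 alpha2delta subunits, 4 calcium channel beta subunits and 8 genes of the Cacng family.

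HAR123 is an enhancer in an intron of SMG6 whose sequence changed quickly in the human lineage, and frontal cortex was profiled because the region is involved in cognitive flexibility. Total RNA depleted of ribosomal RNA was sequenced from the frontal cortex of mice 8 weeks old, in 4 WT and 4 HAR123-KO libraries. The HAR123-KO mice carried a deletion of the mouse HAR123 made with Cas9 in C57BL/6J embryos and kept on that background, so the element was missing from all cells and at all ages, and the WT mice were their littermates. The labels give neither the sex of the mice nor whether a library came from 1 animal, so the p-values measure the spread between these libraries only, and the counted exons cannot show an intronic deletion, so the genotype of each library rests on its label.

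Voltage-gated sodium channels open when the membrane depolarizes and carry the rising phase of the action potential. Each has a pore-forming alpha subunit and beta subunits with a single membrane span, which alter gating and also act as cell adhesion molecules. Voltage-gated calcium channels turn the same depolarization into calcium entry, which triggers transmitter release, dendritic signalling and gene expression, and the alpha1 pore of most of them is joined by an extracellular alpha2delta subunit and a cytoplasmic beta subunit. Most of the Cacng proteins of the brain are better known as transmembrane AMPA receptor regulatory proteins (TARPs), which escort glutamate receptors to synapses.

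The beta4 subunit, Scn4b, is known in striatal and cerebellar neurons for resurgent current, a sodium current that flows as the membrane repolarizes, and a lysine-rich stretch of its cytoplasmic tail is thought to plug the open channel. Since Scn4b is the member on which the results turn, the last 150 coding bases of Scn4b and 2 other sodium channel beta genes are shown, 5′ to 3′ on the coding strand and ending with the stop codon. Capitals mark the in-frame AAA and AAG codons, which encode lysine.
Scn2b: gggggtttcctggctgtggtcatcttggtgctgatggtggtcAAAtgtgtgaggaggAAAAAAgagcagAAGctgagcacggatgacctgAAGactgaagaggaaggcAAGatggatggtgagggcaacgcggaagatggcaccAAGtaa
Scn3b: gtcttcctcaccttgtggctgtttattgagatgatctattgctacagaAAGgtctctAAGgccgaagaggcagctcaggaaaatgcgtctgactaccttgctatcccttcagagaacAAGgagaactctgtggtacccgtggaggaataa
Scn4b: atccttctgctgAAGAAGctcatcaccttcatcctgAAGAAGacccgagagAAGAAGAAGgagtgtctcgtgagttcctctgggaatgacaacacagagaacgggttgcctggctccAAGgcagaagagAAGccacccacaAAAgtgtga
Among these 50 codons, Scn4b had 10 lysine codons, Scn2b had 7 and Scn3b had 3. In the first 25 of the 50 codons Scn4b had 7, in 3 runs, and Scn2b had 4. The Scn4b stretch (GRCm38) lies in exon 4 of 5 at chr9:45149340-45149395 and in exon 5 at chr9:45150411-45150504, and that of Scn2b lies in exon 4 of 4 at chr9:45126155-45126304, both on the plus strand. The Scn3b stretch lies in exons 5 and 6 of 6, at chr9:40282477-40282562 and chr9:40288374-40288437 on the plus strand.

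Libraries held 13528251 to 17051001 counts in total, of which Gm42418, a gene that overlaps ribosomal RNA sequence, held 55.1% to 58.1%. Nuclear protein-coding genes, with Lars2 left out, received 2786320 to 3732172 counts per library, and the 40 channel genes together received 19611 to 26181. The channel genes held 0.701% to 0.704% of the nuclear protein-coding counts in the WT libraries and 0.711% to 0.719% in the HAR123-KO libraries, ranges that did not overlap and that were not tested. Cortical glutamatergic markers summed to 6173 to 6407 normalized counts in WT against 5609 to 5931 in HAR123-KO, without overlap. Some marker genes of other cell types also differed between the genotypes, and their values are given below.

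Most channel genes did not differ detectably between the genotypes. Of the 40 genes, 33 averaged 10 normalized counts or more, and 30 received an adjusted p from DESeq2, which withholds one from genes with a mean under 17.6 normalized counts. Scn4b alone of these 30 was past an adjusted p of 0.05, and it was higher in HAR123-KO. Over the whole table, 1.69% of the 12758 genes with an adjusted p passed that limit, 0.972% as higher and 0.713% as lower. The study also set a minimum fold change in this tissue. When the log2 fold change also had to exceed 0.5 in size, no channel gene was called, limits which 0.298% of all tested genes passed, and the count of channel genes was 0 by edgeR and limma-voom as well.

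Of the 30 channel genes, 8 had an unadjusted p under 0.05 by DESeq2, 7 of them higher and 1 lower in HAR123-KO, where 4.51% of all tested genes were higher and 4.27% lower by this measure. In 5 of them, Scn4b, Cacng4, Cacna1e, Scn1a and Scn2a, every HAR123-KO library lay above every WT library, and no channel gene was lower without overlap. Over all tested genes, 7.67% did not overlap, 4.02% as higher and 3.65% as lower. By fitted fold change 14 channel genes were higher and 16 lower, and their median log2 fold change was -0.03, beside -0.00 over all tested genes, of which 49.4% were higher.

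**Figure D1:**
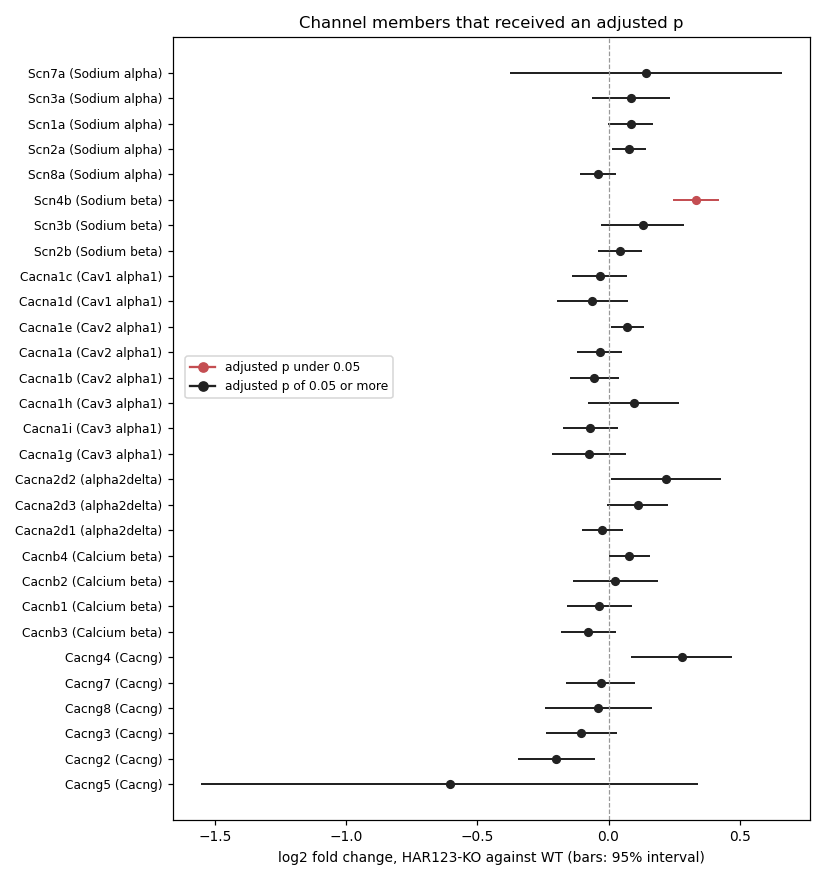
Fitted log2 fold change of HAR123-KO against WT for 29 channel genes with an adjusted p from DESeq2, grouped by subunit class, with bars for the 95% interval. Scn4b, at 0.33, is the gene in colour with an adjusted p under 0.05, and the wide bars of Scn7a and Cacng5 belong to genes with few counts.

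Scn4b (ENSMUSG00000046480, chromosome 9, 45138395 to 45154152, plus strand, GRCm38) had 940.1, 972, 946 and 955 normalized counts in the 4 WT libraries and 1259, 1209, 1149.8 and 1189 in the 4 HAR123-KO libraries. The lowest HAR123-KO library was above the highest WT library, and the coefficient of variation was 1.46% in WT and 3.79% in HAR123-KO. The mean rose from 953 ± 13.9 in WT up to 1202 ± 45.6 in HAR123-KO (SD, n = 4), by 26.1%. The log2 fold change was 0.33 ± 0.04 (SE, adjusted p = 1.71e-12 by DESeq2), with a 95% interval of 0.25 to 0.42. Scn4b stayed past an adjusted p of 0.05 in all 17 alternative fits, at log2 fold changes of 0.31 to 0.37 and adjusted p of 1.38e-12 to 0.0212, and at 0.31 to 0.36 with any 1 library left out. In bulk tissue, fewer cells of a type and less RNA per cell cannot be told apart, and this holds for every level reported here.

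Genes that mark striatal projection neurons, a cell type rich in Scn4b, were higher along with it. All 10 markers of the list had a higher fitted level in HAR123-KO, 9 with a DESeq2 adjusted p under 0.05 and Tac1 with an adjusted p of 0.0647, and none was at 0. Their log2 fold changes ran from 0.29 (Pde10a) to 0.80 (Penk) with a median of 0.42, and their summed level ran from 4894 to 4983 normalized counts in WT and from 6465 to 6574 in HAR123-KO. The called markers included Ppp1r1b (0.36 ± 0.05), Rgs9 (0.46 ± 0.06), Pde10a (0.29 ± 0.04), Adora2a (0.51 ± 0.10), Drd1 (0.38 ± 0.10), Drd2 (0.65 ± 0.11), Penk (0.80 ± 0.05) and Rasd2 (0.36 ± 0.06), each a log2 fold change with its SE. The part of these cells in the higher Scn4b level was not tested.

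Other marker lists were read beside Scn4b too. Of 7 interneuron markers none was called by DESeq2 or edgeR, 1 (Gad2) had an unadjusted DESeq2 p under 0.05, and their sum ran from 2740 to 2842 normalized counts in WT and from 2873 to 2919 in HAR123-KO. Both tested choroid plexus markers, Ttr and Kl, were called higher, with the 6-gene sum at 81.1 to 95.2 in WT and 694 to 733 in HAR123-KO. Of 5 oligodendrocyte markers, 2 were called higher, Mbp among them, with the sum at 13615 to 14083 in WT and 15480 to 15820 in HAR123-KO. Called lower were Slc17a7 and Cux2 among 7 glutamatergic markers, Nr4a2 and Gnb4 among 4 tested markers of claustrum and layer 6b (summed level 601 to 692 in WT and 432 to 469 in HAR123-KO), and Slc1a3 and Gja1 among 5 astrocyte markers (2772 to 2949 and 2502 to 2752). At an unadjusted p under 0.05, 3 astrocyte markers were lower and 1, Gfap, was higher (log2 fold change 0.16 ± 0.08, SE, adjusted p = 0.558 by DESeq2). Vwf was called lower among 5 endothelial markers (350.0 to 386 and 276 to 305), and DESeq2 and edgeR called none among those of microglia, oligodendrocyte precursors or mural cells, where 0, 1 and 1 markers had an unadjusted p under 0.05 by DESeq2. The precursor sum ran from 633 to 647 in WT and from 661 to 715 in HAR123-KO, without overlap, while the sums of microglia (866 to 946 and 846 to 898) and mural cells (239 to 297 and 286 to 316) overlapped. The part of any of these in a channel gene's level was not tested.

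**Figure D2:**
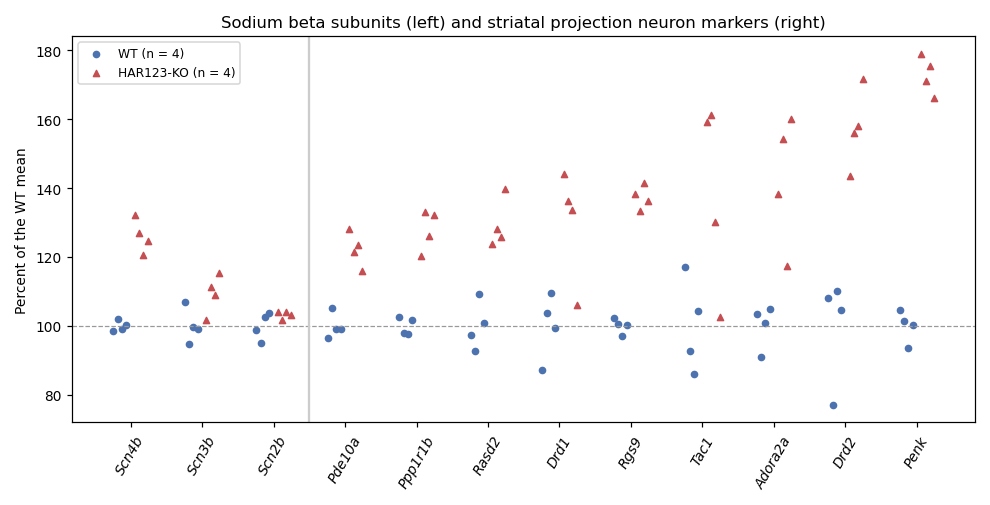
Normalized count of each library as a percent of the gene's WT mean, for 3 sodium channel beta genes and 9 striatal projection neuron markers (circles, WT, triangles, HAR123-KO, n = 4 each). All HAR123-KO points of Scn4b lie above all its WT points, the points of Scn2b and Scn3b overlap, and 7 of the 9 markers drawn show no overlap.

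Scn2b and Scn3b gave no call by DESeq2, edgeR or limma-voom, and neither had an unadjusted p under 0.05 by DESeq2. Levels can be compared between genes only per length, and per kb of annotated exon Scn2b stood at 238 ± 7.53 normalized counts and Scn4b at 216 ± 27.4 (SD, n = 8, both genotypes), levels that overlapped between libraries. Scn3b was lower, at 50.9 ± 3.44, without overlap.

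Scn2b, the beta2 subunit that binds the alpha subunit through a disulfide bond as beta4 does, lies on chromosome 9 from 45117782 to 45130070, ending upstream of the start of Scn4b on the same strand. Its mean was 1089 ± 44 normalized counts in WT against 1124 ± 10.9 in HAR123-KO (SD, n = 4), and the 95% interval of its log2 fold change, -0.04 to 0.13, lay below the whole interval of Scn4b. Scn3b, the beta3 subunit, had a log2 fold change of 0.13 ± 0.08 (SE, adjusted p = 0.691 by DESeq2), with an interval of -0.02 to 0.28 that reached into that of Scn4b. Differences between these fold changes were not tested.

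Summed over the 4 beta genes, the level per kb ran from 956 to 975 normalized counts in WT and from 1000.2 to 1033 in HAR123-KO, without overlap and with no test. The share of Scn4b in that sum was 19.9% ± 0.337 for WT against 23.8% ± 1.07 for the HAR123-KO libraries (SD, n = 4). The longest run of identical bases between transcripts of Scn4b and any other channel gene was 17 bases, in Cacnb1, so reads of Scn4b had no long stretch to share with its relatives.

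Among the sodium channel alpha subunits, the 3 that carry most sodium current in the adult forebrain led by far. Per kb of exon, Scn2a (Nav1.2), found on excitatory axons and dendrites, stood at 173 ± 5.65 normalized counts, Scn8a (Nav1.6), the main channel of the mature axon initial segment, at 136 ± 3.93, and Scn1a (Nav1.1), prominent in inhibitory interneurons, at 89.4 ± 2.99 (SD, n = 8). Scn3a (Nav1.3), a channel of the developing brain, followed at 27.9 ± 2.05. Per kb, the ranges of these 4 did not overlap over the 8 libraries. The undivided counts of Scn2a and Scn8a did overlap, so their order rests on annotated exon lengths of 12732 and 15766 bases.

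The remaining alpha genes were far lower. Scn7a, which encodes Nax, a sodium sensor that is not opened by voltage, stood at 3.39 ± 0.482 normalized counts per kb. Scn9a, known from pain-sensing neurons, stood at 1.22 ± 0.431. Scn10a, Scn11a and Scn4a each had a mean under 10 normalized counts and levels of 0.160, 0.121 and 0.0491 per kb, with overlapping ranges. Scn10a and Scn11a are channels of peripheral sensory neurons, whose 6 listed markers each had a mean under 10 and summed to 2.14 to 12.4 normalized counts in WT against 4.40 to 11.7 in HAR123-KO, with Mrgprd at 0 in all libraries. Scn4a is the channel of skeletal muscle and had 0 counts in all 4 HAR123-KO libraries, where a count of 0 allows up to 3 counts a library. The 7 muscle markers summed to 33.8 to 51.5 normalized counts in WT against 44.7 to 52.2 in HAR123-KO, with Tnni2 at 0.

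**Figure D3:**
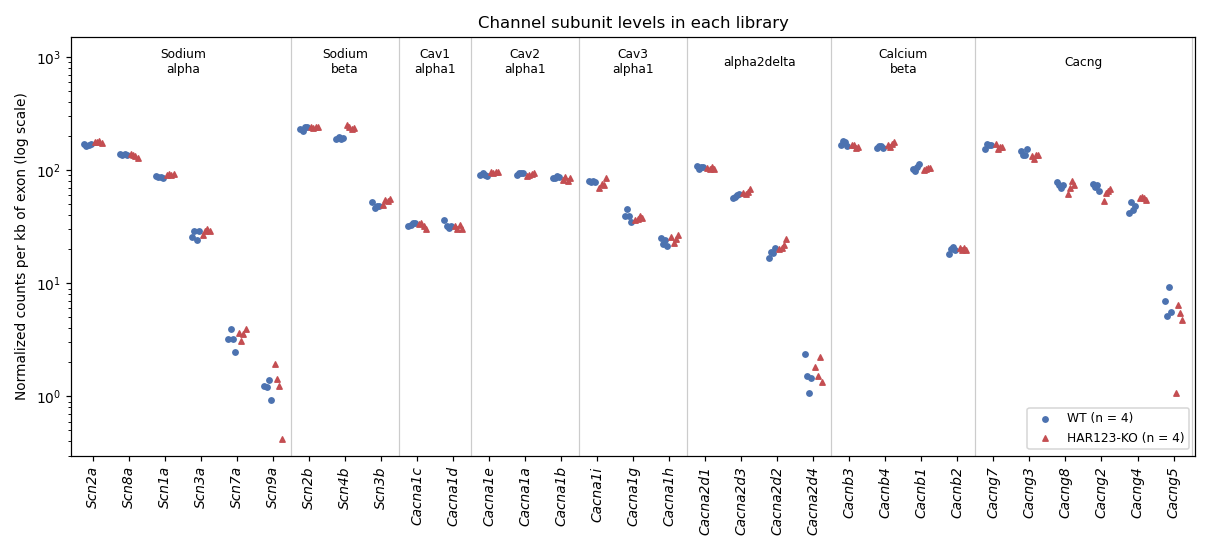
Normalized counts per kb of annotated exon on a log scale in each library (circles, WT, triangles, HAR123-KO, n = 4 each) for 31 channel genes that averaged 10 normalized counts or more, ordered by level within each subunit class. The mean level spans from 1.22 for Scn9a to 238 for Scn2b, and the genotypes overlap for most genes.

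Scn2a had 2179.6, 2076, 2134 and 2165 normalized counts in the 4 WT libraries and 2271, 2248, 2286 and 2212 in the 4 HAR123-KO libraries. Every HAR123-KO library was above every WT library, by a margin that was small beside the counts. Its log2 fold change was 0.08 ± 0.03 (SE), with an unadjusted p of 0.0135 and an adjusted p of 0.323 by DESeq2.
Scn1a had 982, 973, 968 and 946 normalized counts in the 4 WT libraries and 1018, 1037, 1019 and 1027 in the 4 HAR123-KO libraries, again without overlap. The difference of 0.08 ± 0.04 (SE) on the log2 scale had an adjusted p of 0.541 by DESeq2, and neither gene was called under any of the 17 alternatives. Loss of function in Scn1a is the main genetic cause of Dravet syndrome, and variants of Scn2a cause epilepsy and autism.
Scn8a overlapped between the genotypes at 2178 ± 17 normalized counts in WT against 2117 ± 79 in HAR123-KO (SD, n = 4), which differed by -0.04 ± 0.03 on the log2 scale (SE, adjusted p = 0.847 by DESeq2). The interval of that fold change was -0.10 to 0.02, so a change past 0.5 in either direction lay outside it. Scn3a, at 0.08 ± 0.07 (SE), and Scn7a, at 0.14 ± 0.26 (SE), did not pass the test either, with adjusted p of 0.867 and 0.976 by DESeq2.

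Scn3a, Scn2a, Scn1a, Scn9a and Scn7a lie in 1 cluster on chromosome 2, and all but Scn7a have stretches of identical sequence. Of all stretches of 50 bases in the transcripts of a gene, 6.49% in Scn3a, 5.62% in Scn2a, 4.04% in Scn9a and 4.03% in Scn1a also occurred in another channel gene, against at most 1.66% in any other member. How reads with several matches were counted is not given in the sources used here, and the part of shared reads in these levels was not tested.

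Calcium channel alpha1 genes gave no call by DESeq2, edgeR or limma-voom, and Cacna1e was the 1 of them with an unadjusted p under 0.05 by DESeq2. The Cav2 channels, which drive transmitter release at most synapses, were the most abundant group, and their 3 members stood close together. Cacna1e (R-type) had 93.7 ± 2.93 normalized counts per kb and Cacna1a (P/Q-type) had 92.7 ± 2.26, with overlapping ranges, and Cacna1b (N-type) had 85 ± 2.6 (SD, n = 8), below the range of Cacna1a.

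Cacna1e had 2293, 2363, 2308 and 2256 normalized counts in the 4 WT libraries and 2434, 2368, 2458 and 2432 in the 4 HAR123-KO libraries. The lowest HAR123-KO library, at 2368, was just above the highest WT library, at 2363. On the log2 scale it differed by 0.07 ± 0.03 (SE, adjusted p = 0.38 by DESeq2), and it was called under none of the alternatives. Cacna1a and Cacna1b had log2 fold changes of -0.03 ± 0.04 and -0.05 ± 0.05 (SE), with adjusted p of 0.934 and 0.858 by DESeq2. The Cav2 sum per kb was 272 normalized counts in WT against 271 in HAR123-KO.

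The L-type Cav1 genes of the brain, Cacna1c (Cav1.2) and Cacna1d (Cav1.3), which link activity to gene expression and pacemaking, stood at 32.9 ± 1.46 and 32.1 ± 1.98 normalized counts per kb, with overlapping ranges.
Cacna1c had 683, 693, 720.2 and 721 normalized counts in the 4 WT libraries and 711, 729, 677 and 636 in the 4 HAR123-KO libraries. The ranges overlapped, and the log2 fold changes of Cacna1c and Cacna1d were -0.03 ± 0.05 and -0.06 ± 0.07 (SE, adjusted p = 0.959 and 0.918 by DESeq2). Cacna1d shares 4.67% of its exon bases with Chdh on the opposite strand. Cacna1s of skeletal muscle and Cacna1f of the retina had means under 10 normalized counts, at 0.565 and 0.180 per kb.

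Among the T-type Cav3 genes, which open near the resting potential and support burst firing, Cacna1i (Cav3.3) was highest at 77.9 ± 4.77 normalized counts per kb, above Cacna1g (Cav3.1) at 38.8 ± 3.08 and Cacna1h (Cav3.2) at 24.2 ± 1.78 (SD, n = 8), with no overlap between neighbours.
Cacna1i had 794, 783, 786 and 782 normalized counts in the 4 WT libraries and 683, 745, 732 and 839 in the 4 HAR123-KO libraries. The WT libraries lay close together, with a coefficient of variation of 0.662%, and the HAR123-KO libraries lay on both sides of them, with one of 8.7%. This difference in spread was not tested. The fold change on the log2 scale was -0.07 ± 0.05 (SE, adjusted p = 0.802 by DESeq2). Cacna1g and Cacna1h had log2 fold changes of -0.08 ± 0.07 and 0.10 ± 0.09 (SE), with adjusted p of 0.888 and 0.875 by DESeq2. With a library left out they ran from -0.13 (without WT replicate 4) to -0.01 (without WT replicate 2) and from 0.06 (without WT replicate 4) to 0.14 (without HAR123-KO replicate 2).

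The alpha2delta subunits raise the number of calcium channels at the surface, and the first of them binds gabapentin. Cacna2d1 was highest at 105 ± 2.53 normalized counts per kb, followed without overlap by Cacna2d3 at 61.8 ± 3.5, Cacna2d2 at 20.2 ± 2.41 and Cacna2d4, known from photoreceptors, at 1.67 ± 0.446 (SD, n = 8).
Cacna2d1 had 1359, 1283, 1319 and 1314 normalized counts in the 4 WT libraries and 1312, 1265, 1334 and 1277 in the 4 HAR123-KO libraries, with overlap and a log2 fold change of -0.02 ± 0.04 (SE, adjusted p = 0.965 by DESeq2). Cacna2d2, a subunit strong in cerebellar Purkinje cells and some interneurons, had 133, 151, 147 and 163 normalized counts in the 4 WT libraries and 159.7, 164, 172 and 198 in the 4 HAR123-KO libraries. All but the highest WT library lay below all HAR123-KO libraries. Its change of 0.22 ± 0.11 (SE) on the log2 scale had an unadjusted p of 0.036 and an adjusted p of 0.496 by DESeq2. Cacna2d3, which is needed for hearing and pain processing, had 0.11 ± 0.06 (SE, adjusted p = 0.57 by DESeq2).

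Cytoplasmic beta subunits carry alpha1 to the membrane and set its gating. Cacnb3, at 168 ± 8.04 normalized counts per kb, and Cacnb4, at 165 ± 6.98, overlapped, and both were above Cacnb1 at 104 ± 4.81 and Cacnb2 at 19.9 ± 0.917 (SD, n = 8).
Cacnb3 had 673, 731, 709 and 654 normalized counts in the 4 WT libraries and 673, 674, 633 and 648 in the 4 HAR123-KO libraries. The groups overlapped, with a log2 fold change of -0.08 ± 0.05 (SE, adjusted p = 0.757 by DESeq2).
Cacnb4, the subunit lost in the epileptic lethargic mouse, had 1413, 1463, 1456 and 1404 normalized counts in the 4 WT libraries and 1513, 1441, 1530.1 and 1586 in the 4 HAR123-KO libraries. Of the 4 HAR123-KO libraries, 3 lay above all WT libraries and replicate 2 lay among them. Its log2 fold change was 0.08 ± 0.04 (SE), with an unadjusted p of 0.0326 and an adjusted p of 0.476 by DESeq2. The noncoding gene A430018G15Rik covers 1433 of its 8963 exon bases on the opposite strand. Cacnb1 and Cacnb2 had log2 fold changes of -0.03 ± 0.06 and 0.03 ± 0.08 (SE, adjusted p = 0.972 and 0.989 by DESeq2).

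In the Cacng family, 2 TARP genes had an unadjusted p under 0.05, in opposite directions, and neither passed the adjusted limit by DESeq2. Per kb, Cacng7 led at 162 ± 6.2 normalized counts, ahead of Cacng3 at 139 ± 8.36 (SD, n = 8). Cacng8 at 72.7 ± 5.71, Cacng2 at 66.9 ± 7.09 and Cacng4 at 51.6 ± 6.15 followed, each overlapping its neighbour. Cacng5 stood at 5.59 ± 2.33, and Cacng6 and the skeletal muscle gamma1 gene Cacng1 had means under 10 normalized counts.

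Cacng4 (gamma-4, chromosome 11, 107732357 to 107794557, minus strand, GRCm38), a TARP most prominent in the young brain and known from striatum, had 149, 186, 159 and 173 normalized counts in the 4 WT libraries and 205, 206, 202 and 197 in the 4 HAR123-KO libraries. The HAR123-KO libraries were close together and all above the WT libraries. The mean was 167 ± 16.4 in WT against 202 ± 4.23 in HAR123-KO (SD, n = 4), which gave 0.28 ± 0.10 as log2 fold change (SE). Its call depended on the test, with an adjusted p of 0.155 by DESeq2, 0.0462 by edgeR's quasi-likelihood test and 0.0619 by limma-voom, and a range of 0.0462 to 1 over the alternatives. By edgeR, 2 of the 33 channel genes tested were called, Scn4b and Cacng4, where 2.28% of all 14503 genes were, 1.26% as higher. Without WT replicate 1, its lowest library, the log2 fold change fell to 0.23 with an adjusted p of 0.7501 by DESeq2. The striatal marker values given above for Scn4b apply here as well, and their part in the level of Cacng4 was not tested.

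Cacng2 (stargazin, chromosome 15, 77991748 to 78120028, minus strand), the TARP that is mutated in the stargazer mouse, had 419.9, 388, 406 and 363 normalized counts in the 4 WT libraries and 294, 344, 362 and 373 in the 4 HAR123-KO libraries. The groups overlapped at 363 in the lowest WT library and 373 in the highest HAR123-KO library. The genotypes differed by -0.20 ± 0.07 on the log2 scale (SE, adjusted p = 0.209 by DESeq2). Of the cortical glutamatergic markers, 7 of 7 were lower by fitted fold change and 2 were called, with the sums given above, and their part in its level was not tested. The noncoding gene A730060N03Rik covers 5.86% of the exon bases of Cacng2 on the opposite strand.

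Cacng7 (gamma-7) had 375, 413, 406 and 405 normalized counts in the 4 WT libraries and 413, 378, 388 and 389 in the 4 HAR123-KO libraries. These overlapped, with a log2 fold change of -0.03 ± 0.07 (SE, adjusted p = 0.98 by DESeq2). Cacng3 and Cacng8, TARPs of forebrain and hippocampus, had -0.10 ± 0.07 and -0.04 ± 0.10 (SE), with adjusted p of 0.746 and 0.984 by DESeq2. Cacng5 ran from 19.6 to 35.6 normalized counts in WT and from 4.1 to 24.7 in HAR123-KO, where replicate 1 was the lowest and the other 3 libraries had 18.1 to 24.7. Its log2 fold change of -0.61 ± 0.48 (SE) did not pass the test, and leaving out HAR123-KO replicate 1 took it to -0.29, while leaving out WT replicate 3 took it to -0.40. A microRNA gene, Gm23450, lies within 3.88% of the exon bases of Cacng8 on the same strand.

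**Figure D4:**
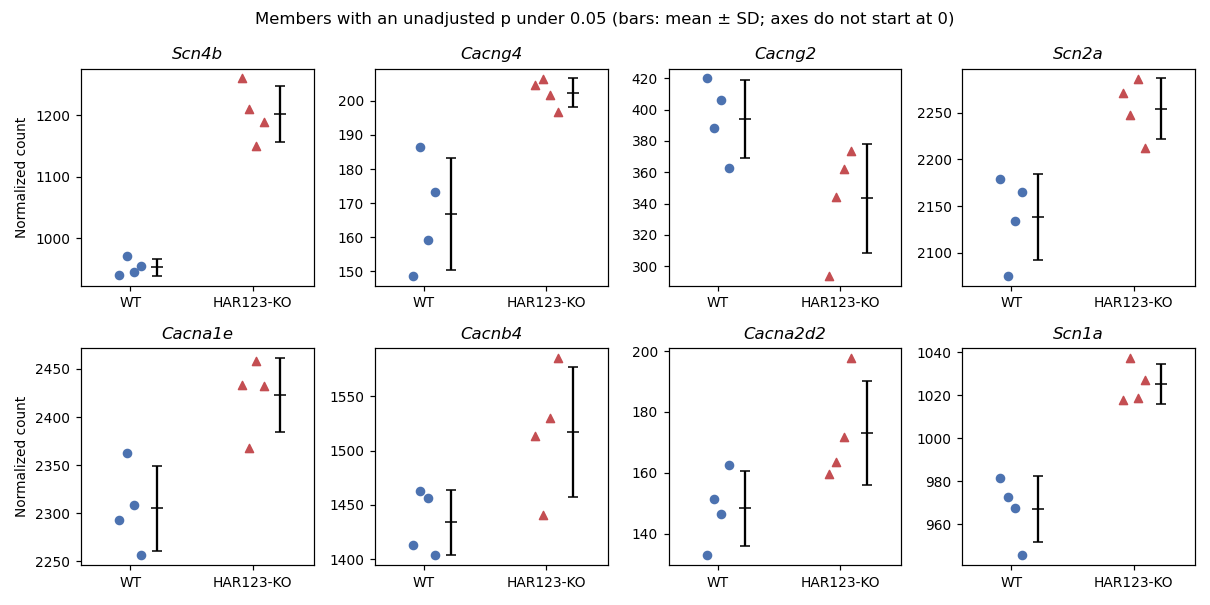
Normalized count in each library (circles, WT, triangles, HAR123-KO) with the mean and SD (n = 4) beside them, for the 8 channel genes with an unadjusted p under 0.05, on axes that do not start at 0. The genotypes are apart for Scn4b, Cacng4, Scn2a, Cacna1e and Scn1a, and they overlap for Cacng2, Cacnb4 and Cacna2d2.

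The 10 channel genes without an adjusted p included Scn4a, Scn9a, Scn10a, Scn11a, Cacna1f, Cacna1s, Cacna2d4, Cacng1 and Cacng6. Of these, 7 had means of 0.346 to 3.70 normalized counts, and a difference between the genotypes was not detectable at this depth. Scn9a had 15.2 ± 2.51 normalized counts in WT against 16 ± 8 in HAR123-KO, and Cacna2d4 had 15.3 ± 5.2 and 16.4 ± 3.71 (SD, n = 4), both with overlap.

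Summed by class, the level per kb moved little. The alpha subunits of sodium channels summed to 426 ± 2.84 normalized counts per kb in WT and 438 ± 7.05 in HAR123-KO, Cav1 to 66.7 and 64.7, Cav3 to 143 and 139, alpha2delta to 186 and 192, calcium beta to 458 and 456 and Cacng to 508 and 493 (means, n = 4). The log2 ratio of the means ran from -0.04 to 0.08 over the 8 classes, with the sodium beta class at the top, and no test was made on these sums.

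Genes that work with the channels were read in 5 lists of 56 genes, of which 55 had a row in the table and 48 received an adjusted p. Of these, 4 were called, 3 higher and 1 lower, beside 1.69% of all tested genes, and their median log2 fold change was -0.00. None of the 8 sodium channel partners, fibroblast growth factor homologous factors and the ankyrin G scaffold of the axon initial segment among them, was called, nor any of the 4 tested genes of the sodium leak channel, nor any of the 12 AMPA receptor subunits and auxiliary proteins. The smallest adjusted p in these 3 lists were 0.546, 0.984 and 0.108 by DESeq2, and 1, 0 and 2 of their genes had an unadjusted p under 0.05. By edgeR none was called either, and by limma-voom Olfm1 of the AMPA receptor list was.

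Of 14 tested genes of intracellular calcium release, uptake and extrusion, DESeq2 called 3 higher and none lower, where 0.972% of all tested genes were called higher and 0.713% lower. Without overlap between the genotypes, 3 of the 14 were higher and 2 lower, where 4.02% and 3.65% of all tested genes were. By fitted fold change 7 of the 14 were higher and 7 lower, with a median of -0.00 on the log2 scale. Itpr1, the IP3-gated release channel of the endoplasmic reticulum, had 4019, 3989, 4000.1 and 3993 normalized counts in the 4 WT libraries and 4553, 4203, 4479 and 4440.0 in the 4 HAR123-KO libraries. The HAR123-KO libraries were all above the WT libraries, which lay within a narrow band, and the log2 fold change was 0.14 ± 0.03 (SE, adjusted p = 3.12e-05 by DESeq2).
Atp2b1, a plasma membrane calcium pump, had 3973, 3923, 3919 and 3883 normalized counts in the 4 WT libraries and 4217, 4371, 4303 and 4228 in the 4 HAR123-KO libraries. Again the genotypes did not overlap, with a log2 fold change of 0.13 ± 0.03 (SE, adjusted p = 1.11e-04 by DESeq2). Ryr3, a ryanodine receptor that releases calcium from the same store, had 454, 456, 458 and 526 normalized counts in the 4 WT libraries and 552, 549.6, 544 and 583 in the 4 HAR123-KO libraries.
The genotypes were apart for Ryr3 too, at a log2 fold change of 0.23 ± 0.06 (SE, adjusted p = 0.0083 by DESeq2). Its call was lost when any of 4 libraries was left out, at adjusted p of 0.109, 0.109 and 0.0634 without WT replicates 1, 2 and 3 and 0.0533 without HAR123-KO replicate 4. Atp2b4, another calcium pump, had a log2 fold change of -0.12 ± 0.04 (SE, adjusted p = 0.0851 by DESeq2), with all HAR123-KO libraries below all WT libraries.

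Among 10 tested regulators of calcium channels, Calm3, a calmodulin gene, fell, where 0.713% of all tested genes were called lower. It had 4071, 4206, 4239 and 4314 normalized counts in the 4 WT libraries and 3780.1, 3977, 3859.7 and 3981 in the 4 HAR123-KO libraries. All HAR123-KO libraries lay below all WT libraries, with a log2 fold change of -0.11 ± 0.03 (SE, adjusted p = 0.00525 by DESeq2). The call was lost without HAR123-KO replicate 1 (adjusted p = 0.0896) or replicate 3 (0.0752), and with library totals as size factors (0.492).
Other partner genes with an unadjusted p under 0.05 by DESeq2 included Rem2, a small GTPase that inhibits calcium channels, at 0.58 ± 0.25, Cabp1, a calcium-binding protein, at -0.15 ± 0.07, Rimbp2, which ties calcium channels to release sites, at -0.11 ± 0.05, Nfasc of the axon initial segment at -0.07 ± 0.04, and Gsg1l and Olfm1 of the AMPA receptor complex at -0.17 ± 0.08 and -0.09 ± 0.03 (log2 fold changes with SE, adjusted p of 0.108 to 0.546). Without HAR123-KO replicate 1 Cabp1 stood at -0.10, and with library totals as size factors Rimbp2 stood at -0.07, Olfm1 at -0.06 and Nfasc at -0.03. In all, 12 of the 48 were below that limit, 4 higher and 8 lower, where 8.78% of all tested genes were. Itpr1 and Ryr3 are, like Scn4b, expressed in striatal neurons, and the part of the striatal markers in their levels was not tested.

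**Figure D5:**
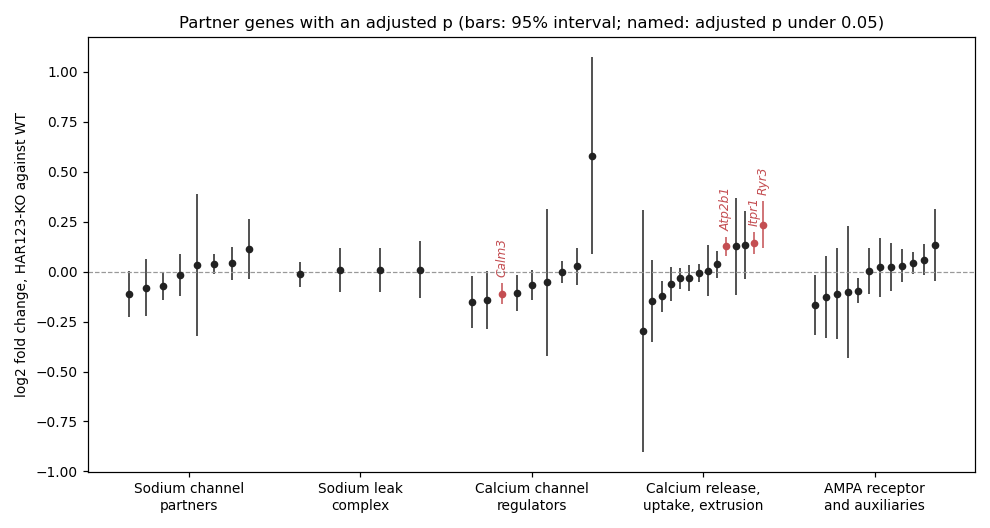
Fitted log2 fold change of HAR123-KO against WT for 47 partner genes with an adjusted p from DESeq2, in 5 lists and ordered by value within each, with bars for the 95% interval. Atp2b1, Itpr1 and Ryr3 lie above 0 and Calm3 below it, and these 4 named genes are the ones with an adjusted p under 0.05.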

How the data were processed

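Gene counts of the 8 frontal cortex libraries were deposited by the authors as raw counts of reads over the exons of each gene. Per the submitters' processing notes they were made with STAR 2.5.2b on GRCm38 and featureCounts. The libraries kept strand, and the strand and multiple-match settings of the counting are not given in the sources used here. All 55536 identifiers matched GENCODE M21 with equal coordinates, and 0 columns were left unused.

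Libraries were grouped by title. DESeq2 1.42.0 (R 4.3.3; Wald test, median-of-ratios size factors, genotype only, independent filter tuned to 0.1) was fitted to all genes, as in the study, and calls were made at an adjusted p of 0.05. Normalized counts are counts divided by the size factor. Levels per kb divide them by annotated exon length. Intervals are at 95%. Floors for a count of 0 cover counting error only, since no molecular tags were used.

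The alternatives were edgeR 4.0.16, limma-voom (limma 3.58.1), 3 other scalings, 2 low-count filters, a replicate block, a stricter threshold and leaving out each library. The script was tested on simulated data. Between libraries of a genotype, chi-square per degree of freedom over genes was 1.21 to 1.30 in 12 pairs, and no pair was merged. The channel genes, the partner and marker lists and the tests were chosen with earlier results of these data known. Values in every library are given for members with an unadjusted p under 0.05 and for the most abundant member per kb of each class, and partner genes are named at an unadjusted p under 0.05, with the markers that were called. Some members, partners and markers are counted but not reported by name here. Coordinates are 1-based, and transcript sequences are those of GENCODE M21.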

Additional observations from a re-analysis of the deposited data

How the results depend on the processing

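Scn4b was called in all 17 alternatives, and the count of called channel genes was 1 in each of them except edgeR's quasi-likelihood test, which gave 2, Cacng4 being added. The count with a log2 fold change over 0.5 as well was 0 throughout. The count of called partner genes, 4 in the reported fit, was 7 with limma-voom, among them Atp2b4 (adjusted p = 0.0382) and Olfm1 (0.0280), and was 3 to 4 with a library left out. Over all genes, 215 calls became 331 with edgeR and 198 with library totals as size factors, and ran from 133 (without WT replicate 1) to 185 with a library left out. Library totals gave 159 higher and 39 lower calls, against 124 and 91, and shifted the median log2 fold change by 0.04. Under them the log2 ratio of HAR123-KO to WT for the summed class levels went from -0.044 to -0.0048 for Cacng, from 0.049 to 0.088 for alpha2delta, from -0.0047 to 0.034 for calcium beta, from -0.0028 to 0.036 for Cav2, from 0.040 to 0.080 for sodium alpha and from 0.08 to 0.11 for sodium beta. Without division by exon length the ratio was 0.021 for calcium beta, 0.021 for Cav2 and 0.12 for sodium beta. With a library left out it ran from -0.06 to -0.03 for Cacng, 0.04 to 0.07 for alpha2delta, -0.02 to 0.01 for calcium beta, -0.06 to -0.02 for Cav1, -0.01 to 0.00 for Cav2, -0.08 to -0.02 for Cav3, 0.03 to 0.05 for sodium alpha and 0.07 to 0.08 for sodium beta. Of the 30 channel genes with an adjusted p, 8 took the other sign under some alternative, all with a reported log2 fold change within 0.0388 of 0 and none called. With library totals 7 did so, among them Cacna1a (0.00497), Cacna1c (0.00522), Cacna2d1 (0.0159), Cacnb1 (0.00362), Cacng7 (0.00832) and Cacng8 (0.000141). With a library left out 4 did so: Cacng8 ran from -0.103 to 0.0227 (without HAR123-KO replicate 1), Cacnb1 from -0.0669 to 0.00328 (without WT replicate 4), Cacna1c from -0.0622 to 4.87e-05 (without HAR123-KO replicate 4) and Cacnb2 from 0.0616 down to -0.0112 (without WT replicate 1). Fold changes moved by over 1.5 times in 19 of the 30 with a library left out and in 18 with library totals, none of them a called gene. Library totals moved Cacna1e to 0.11 and Scn2a to 0.12. The called partner genes and those named at an unadjusted p under 0.05 kept their sign under the alternatives run. The cause of these differences was not tested. The class sums under library totals and without each library, and the block in edgeR, were chosen after seeing the data.

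The replicate numbers were not a pairing that the labels describe. Deviations of libraries with the same number correlated at r of -0.02 to 0.02 over 8793 genes, and 1 of 4 WT libraries correlated best with its own number. With the replicate block in DESeq2, 1 channel gene was called (Scn4b, adjusted p = 0.0212) and 0 partner genes, so that Itpr1, Atp2b1, Ryr3 and Calm3 were not called (adjusted p = 1 each), with 22 calls over all genes. The block in edgeR gave 326 calls over all genes and called these 4 partner genes.

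Depth limits these results: a library held 2786320 to 3732172 nuclear protein-coding counts without Lars2, and the 10 channel genes without an adjusted p were too low to read.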
